A study of Mus musculus with 24 samples.

Results

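The glutathione S-transferases are represented on the array by 21 of its 20794 cDNA clones. They were taken as every clone whose symbol in the platform annotation names an alpha, kappa, mu, omega, pi, theta or zeta class transferase, and 12771 clones of the array have 1 symbol. The 21 clones stand for 16 genes. The mu class has 4 genes on 5 clones (*Gstm1*, *Gstm2*, *Gstm3*, and *Gstm5* on 2 clones), the alpha class 3 genes on 4 clones, the theta class 4 genes on 4 clones and the omega class 2 genes on 4 clones. *Gstz1* has 2 clones, and *Gstp1* and *Gstk1* have 1 each. *Gstm2* was singled out from the readout itself, as the clone with the lowest p of all clones in the heart, so its heart values are given as a description and support nothing by a test. The question was whether its lower ratio in the heart was shared by its relatives and by the other organs.

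*Eya3* encodes a member of the Eyes absent family, proteins that act as transcriptional co-activators and as phosphatases. Homozygous mutant males (*Eya3*-/-), 13 weeks old by the sample labels, gave brain, heart and skeletal muscle. The 4 mice, called W, X, Y and Z here, were measured on 2-colour arrays, with pooled RNA of wild-type males, taken from the matching organ, in the other channel. The mutants carry a pT1βgeo gene trap insertion in an intron of *Eya3*, from a single integration in ES cells of a 129 strain, and were crossed to C57BL/6 over several generations, which leaves them predominantly but not wholly C57BL/6. Each mouse and organ was hybridised on 2 arrays with exchanged dyes, giving 8 arrays per organ. The labels and the methods give different numbers of pooled animals, and a range of animal numbers given for the pool takes in mice W and X, so the make-up of the pool is not certain. The pool is 1 control sample, so no p-value below measures a spread between wild-type animals. The limma p-values use the spread between mutant mice, array noise included, drawn towards the spread of all clones.

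Glutathione S-transferases join the tripeptide glutathione to reactive, electrophilic compounds, which makes these compounds soluble and ready for export. The cytosolic classes share a fold and differ in the substrates they prefer. The mu class is encoded by a cluster of neighbouring genes, and in humans GSTM2 is known as the muscle form, an enzyme that also conjugates oxidation products of catecholamines. The annotation of the mouse cluster on chromosome 3 lists *Gstm5*, *Gstm7*, *Gstm6*, *Gstm3*, *Gstm2*, *Gstm1* and *Gstm4* in this order along the chromosome. *Gstm4*, *Gstm6* and *Gstm7* have no clone under these symbols. *Eya3* itself lies on chromosome 4.

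The starts of the 4 mu class genes on the array are shown because *Gstm1* and *Gstm5* clone 15735 did not share the low heart ratio of *Gstm2*. *Gstm3* had too few mice in the heart to be tested. The windows are the 250 bases before each RefSeq gene start in GRCm38.p6, written 5′ to 3′ on the strand of the gene, with matches to TGANNNNGC on either strand in capitals. These letters are the core of the antioxidant response element, through which the factor Nrf2 acts on many transferase genes. The windows lie at chr3:107986421-107986670 on the minus strand for *Gstm2*, chr3:108017974-108018223 on the minus strand for *Gstm1*, chr3:107969175-107969424 on the minus strand for *Gstm3* and chr3:107895604-107895853 on the plus strand for *Gstm5*.
Gstm2: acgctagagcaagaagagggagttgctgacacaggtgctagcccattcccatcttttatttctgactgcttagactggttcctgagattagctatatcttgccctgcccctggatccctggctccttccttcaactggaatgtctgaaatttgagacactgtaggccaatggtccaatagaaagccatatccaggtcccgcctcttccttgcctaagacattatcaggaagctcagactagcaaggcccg
Gstm1: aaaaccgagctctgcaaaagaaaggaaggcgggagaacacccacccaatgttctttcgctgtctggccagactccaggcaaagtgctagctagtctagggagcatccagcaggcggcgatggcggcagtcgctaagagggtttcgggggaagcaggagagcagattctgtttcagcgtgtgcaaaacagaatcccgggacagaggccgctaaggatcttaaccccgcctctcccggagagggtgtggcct
Gstm3: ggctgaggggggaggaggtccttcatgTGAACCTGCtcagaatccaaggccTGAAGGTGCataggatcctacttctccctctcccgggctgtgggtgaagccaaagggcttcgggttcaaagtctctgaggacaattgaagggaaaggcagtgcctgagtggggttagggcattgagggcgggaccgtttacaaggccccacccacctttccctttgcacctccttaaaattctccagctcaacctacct
Gstm5: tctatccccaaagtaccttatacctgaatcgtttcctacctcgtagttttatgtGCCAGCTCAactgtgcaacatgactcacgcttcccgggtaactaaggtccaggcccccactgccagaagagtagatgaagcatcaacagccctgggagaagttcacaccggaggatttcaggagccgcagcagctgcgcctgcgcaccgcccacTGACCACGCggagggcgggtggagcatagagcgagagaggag
The *Gstm2* and *Gstm1* windows held 0 matches to TGANNNNGC. The *Gstm3* window held 2, with their outermost bases 223 and 199 bases before the start, and the *Gstm5* window held 2, at 196 bases on the opposite strand and at 42 bases. The motif occurred in 35.2% of the 32851 windows of the same length, so its presence or absence in a window says little. TATAAA on either strand was found in 0 of the 4 windows and in 12.4% of all windows. In pairwise alignments 50.8% of the aligned *Gstm2* bases were identical in *Gstm1*, 52.8% in *Gstm3* and 56.6% in *Gstm5*. Over the whole family, 14 of the 16 genes had a window, and 8 of these held TGANNNNGC.

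All values are log2 ratios, likely mutant over wild-type pool, a direction the sources do not state outright. Between 4.75% and 24.5% of the values of an array were missing. The 2 arrays of a mouse had little in common over all clones, with a median correlation across clones, which are not independent replicates, of -0.07 in heart, -0.04 in muscle and -0.02 in brain. The deposited ratios carry no level, so the identity of the organs could not be checked from marker genes, and no level of one gene can be set against another. In RNA of whole organs, fewer cells that express a gene and less RNA per cell cannot be told apart. The *Eya3* clone had a value on both arrays for 2 mice in heart and 0 in brain and muscle, so the mutation itself could not be checked. Haemoglobin clones were below the pool in the heart, with a median by mouse of -0.85 in W, -0.19 in X, -0.51 in Y and -0.58 in Z.

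In the heart, the *Gstm2* clone was far below the wild-type pool in every mouse. With the mutant in Cy5 and in Cy3 in turn, its log2 ratio was -2.35 and -2.37 in mouse W, -2.32 and -2.53 in X, -2.12 and -2.13 in Y, and -2.05 and -2.37 in Z. All 8 arrays were thus on one side, and no mouse stood apart. The array with the mutant in Cy3 was the lower one in every mouse, by little, with a mean of -2.35 beside -2.21 for the mutant in Cy5. The mean of the 4 mice was -2.28 ± 0.14 (SD, n = 4), a 4.85-fold lower signal. The mouse with the lowest *Gstm2* ratio, X at -2.43, had the haemoglobin median nearest to 0, and mouse W, with the lowest haemoglobin median, had -2.36 for *Gstm2*. The part of blood in the *Gstm2* value was not tested.

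**Figure D1:**
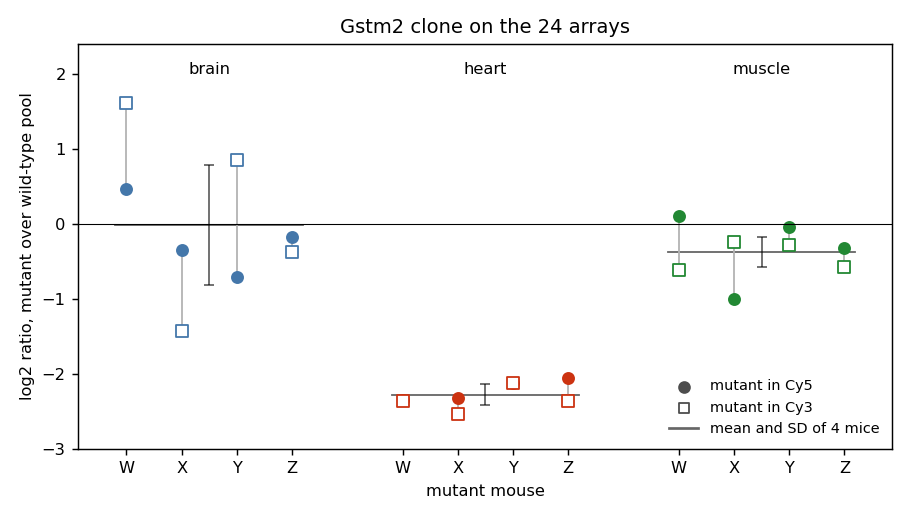
The log2 ratio of the *Gstm2* clone (vertical axis) is shown for each mouse (horizontal axis) in brain, heart and muscle, with filled circles for arrays with the mutant in Cy5, open squares for the mutant in Cy3, and a line with a bar for the mean ± SD of 4 mice. The 8 heart arrays lie between -2.53 and -2.05, below all 16 arrays of brain and muscle.

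Few clones combined a heart ratio of this size with such close dye pairs. Its mean gap between the 2 arrays of a mouse in the heart was 0.14, smaller than in all but 0.31% of the 11299 clones with 8 heart arrays. By its mean, *Gstm2* ranked 88th lowest of 16241 clones, and 110 clones had a mean below -2. Of those 110 clones, 1 had 8 heart arrays with all of them below 0, the *Gstm2* clone. Clones with missing arrays could not meet this, and how many of the 110 had 8 arrays was not counted. Arrays all below 0 were found for 70 of the 11299 clones (0.62%). Among the clones with 8 heart arrays, a mean below -2 in both dye orientations was found for 1 clone, again *Gstm2*, and below -1.5 for 5 clones. Since *Gstm2* was chosen on these heart values, the ranks are a description.

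**Figure D2:**
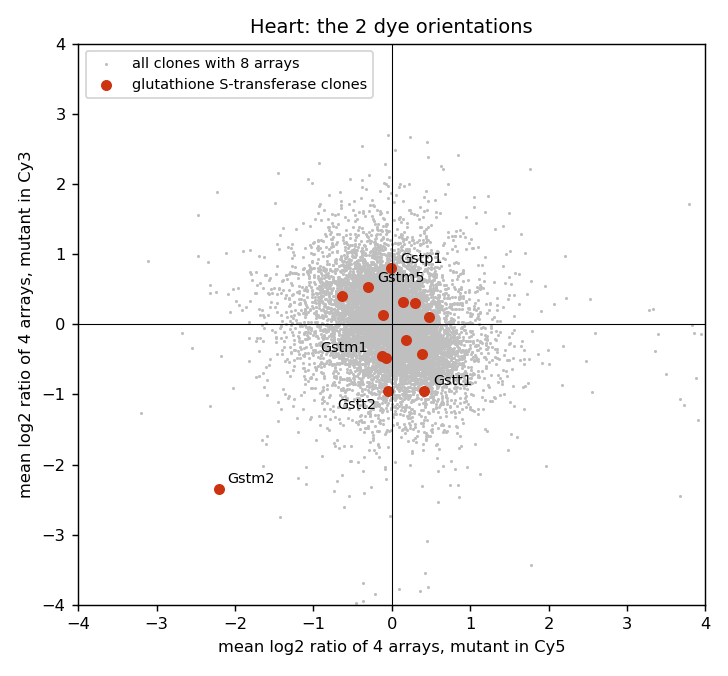
Each point is a clone with 8 heart arrays, placed by its mean log2 ratio on the 4 arrays with the mutant in Cy5 (horizontal) and on the 4 with the mutant in Cy3 (vertical), with the 14 transferase clones in red and 73 other clones outside the frame. *Gstm2* lies at -2.21 and -2.35, while the other transferases lie within the cloud of all clones.

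The clones next in the ranking of the heart show where the rule's boundary fell. The *Emc10* clone had a mean of -1.96 ± 0.28 (SD, n = 3), clone 15203, which has no symbol, had 1.41 ± 0.40 (SD, n = 4), and the *Plcl2* clone had 1.46 ± 0.12 (SD, n = 3). They were smaller in size than *Gstm2*, and *Emc10* and *Plcl2* were measured in fewer mice. The clones with the 5 identifiers before and the 5 after the *Gstm2* clone were looked at as well, since identifiers may follow the clone library. Their heart means ran from -0.87 to 0.65, and none of the 9 that could be tested had an unadjusted p under 0.05 in limma.

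In muscle, *Gstm2* was slightly below the pool. The mouse means were -0.26 in W, -0.62 in X, -0.16 in Y and -0.45 in Z, and 7 of 8 arrays were below 0, from -1.0 to 0.11. The 4 mice lay on one side, but close to 0 beside the heart values. The mean of -0.37 ± 0.20 (SD, n = 4) did not pass limma's test over all clones (adjusted p = 0.954), and an exact sign-flip test over the 4 mice gave p = 0.125 (two-sided), the smallest p that 4 mice allow.

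In brain, *Gstm2* had no common direction. The mouse means were 1.04 in W, -0.89 in X, 0.07 in Y and -0.27 in Z, and single arrays spread from -1.43 to 1.61. Mice W and X were on opposite sides with both of their arrays. The mean was -0.01 ± 0.81 (SD, n = 4; limma adjusted p = 0.990), and the difference between brain and muscle of 0.36 was not called either (adjusted p = 0.792). With this spread, a change in brain of the size seen in muscle was not detectable.

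Within each mouse, *Gstm2* was lower in the heart than in both other organs. The heart minus muscle difference was -2.10 in W, -1.81 in X, -1.96 in Y and -1.76 in Z, a mean of -1.91 ± 0.15 (SD over mice). The heart minus brain difference was -3.39, -1.54, -2.20 and -1.94 in the same order, a mean of -2.27 ± 0.80. The heart values did not overlap those of either organ. Over all clones, the heart mice lay below the brain mice without overlap in 4.74% and below the muscle mice in 2.99%. These differences contain the heart values that chose the clone and are a description.

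The relatives did not share the fall. After *Gstm2* was set aside, 16 relatives could be tested in the heart, which needed 3 mice with a value on both arrays. Their means ran from -0.50 to 0.40, with 9 below and 7 above 0 and a median of -0.02, beside 0.01 over all clones tested. The heart median of the family, *Gstm2* included, depended on the dye orientation. It was -0.42 with only the arrays with the mutant in Cy3 and -0.0025 with only those with the mutant in Cy5. None passed limma's test at an adjusted p under 0.10 (0% of all clones did), and none had an unadjusted p under 0.05 (5.22% of all clones did). In no mouse did a relative's heart mean reach the *Gstm2* range of -2.43 to -2.12, the lowest being *Gstt2* in mouse Z at -1.84. The 4 clones without enough mice in the heart were *Gstm3*, *Gstt3*, 1 clone of *Gstm5* and 1 of *Gstz1*.

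**Figure D3:**
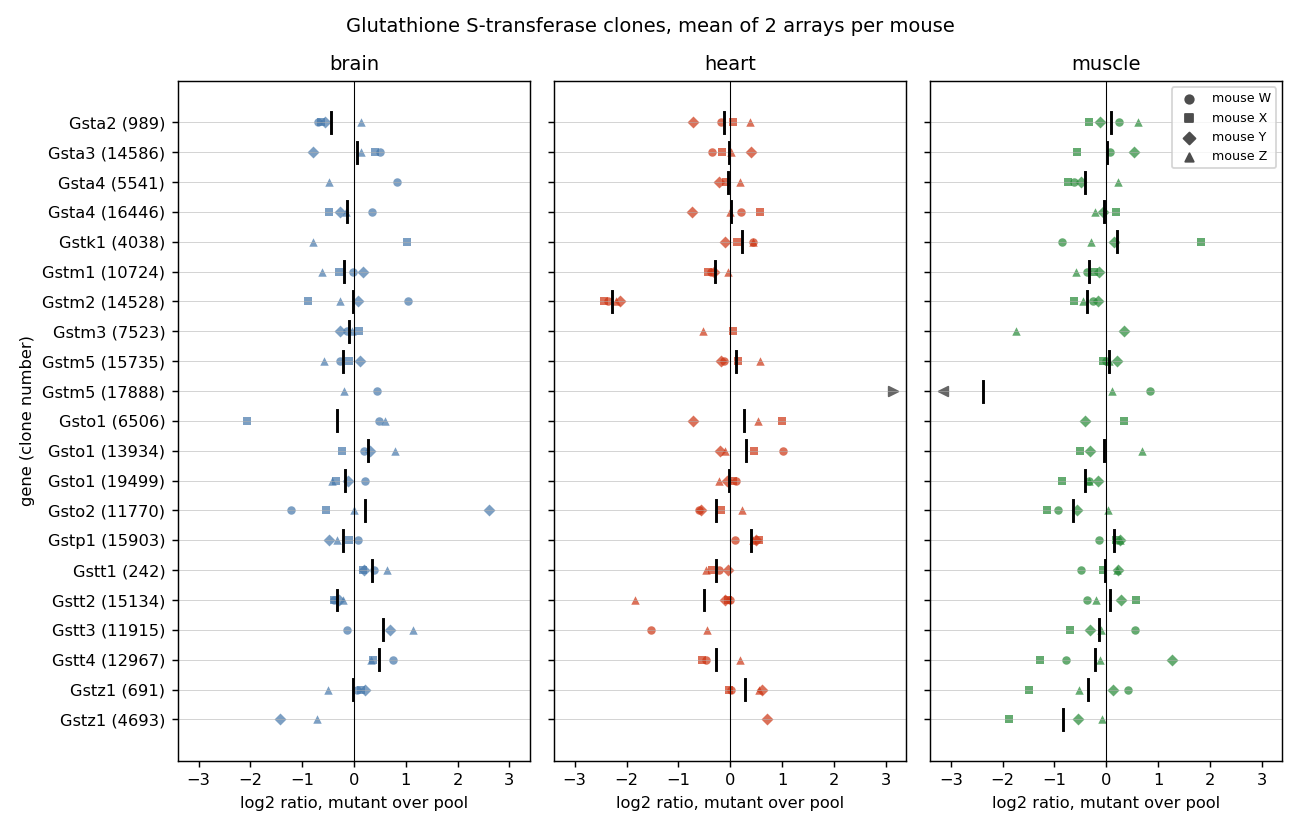
Each row is a transferase clone, and each symbol is 1 mouse (mean of its 2 arrays, log2 ratio on the horizontal axis) in brain, heart and muscle, with a black bar for the mean where at least 3 mice had values and grey arrows for values beyond the frame. In the heart, the *Gstm2* mice lie to the left of every other transferase.

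Within the mu class, *Gstm1* came nearest to *Gstm2*. *Gstm1* lies beside *Gstm2* in the cluster and encodes an enzyme abundant in liver. Its heart ratio was -0.36 in W, -0.43 in X, -0.31 in Y and -0.04 in Z, a mean of -0.29 ± 0.17 (SD, n = 4; limma adjusted p = 0.802), with 7 of 8 arrays below 0. All 4 mice were below 0, yet none came near the *Gstm2* values. In muscle *Gstm1* was again below 0 in all 4 mice, from -0.59 to -0.13, with a mean of -0.33 ± 0.20 (SD, n = 4; limma adjusted p = 0.954). In brain its mean was -0.19 ± 0.34 (SD, n = 4), with 3 mice below and 1 above 0. Heart and muscle differed by 0.05 for *Gstm1* (limma adjusted p = 0.969).

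*Gstm5*, a mu class member known from brain and testis, was measured by 2 clones of very different quality. Clone 15735 had heart ratios of -0.11, 0.16, -0.17 and 0.57 in mice W to Z, a mean of 0.11 ± 0.34 (SD, n = 4). Its muscle values lay between -0.07 and 0.21, and its brain mean was -0.20 ± 0.29 (SD, n = 4). The mice lay on both sides of 0 in every organ. Clone 17888 had both arrays for 1 mouse in the heart, and that mean of 7.80 rested on an array value of 16.33 beside -0.73 on the array with exchanged dyes. Its muscle mean of -2.38 ± 4.96 (SD, n = 3) likewise rested on a value of -16.62 in mouse Y. Values of this size had one sign for each dye orientation over the whole data set: all 1236 values beyond 10 on arrays with the mutant in Cy5 were above 0, and all 1410 on arrays with the mutant in Cy3 were below 0.

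*Gstm3* gave fewer values outside the brain. In brain its 4 mice lay between -0.27 and 0.09, with a mean of -0.09 ± 0.15 (SD, n = 4). In heart, 2 mice had a value on both arrays, with means of 0.05 in X and -0.53 in Z. In muscle, such means were 0.33 in Y and -1.74 in Z, on both sides of 0 as in heart. The 2 muscle arrays of Z gave 0.94 and -4.43. Transcripts of mu class genes resemble each other, so a spotted cDNA may bind those of more than 1 member. The inserts of the clones were not used here, and cross-hybridisation was not tested.

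Of the alpha class, the enzymes that also act on products of lipid peroxidation, no clone had a direction common to all 4 mice in any organ. *Gsta4*, whose product removes hydroxynonenal, had 2 clones. In heart, clone 5541 had a mean of -0.04 ± 0.20 (SD, n = 3) and clone 16446 had 0.01 ± 0.55 (SD, n = 4). *Gsta3*, which protects mice from aflatoxin, had a heart mean of -0.02 ± 0.33 (SD, n = 4), and *Gsta2* had -0.11 ± 0.46 (SD, n = 4). The heart means of the class thus lay close to 0, with mice on both sides. In brain *Gsta2* was below 0 in mice W, X and Y, between -0.69 and -0.56, and at 0.14 in Z (mean -0.44 ± 0.39, SD, n = 4; limma adjusted p = 0.521).

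The theta class, enzymes that act on small halogenated compounds among others, held the relative with the largest heart minus brain difference among those with 4 mice in both organs. *Gstt1* was below 0 in the heart in every mouse, at -0.21 in W, -0.35 in X, -0.03 in Y and -0.47 in Z. In brain it was above 0 in every mouse, at 0.39 in W, 0.17 in X, 0.19 in Y and 0.64 in Z. The groups did not overlap. The heart mean was -0.27 ± 0.19 and the brain mean 0.35 ± 0.22 (SD, n = 4), and the heart minus brain difference of -0.62 was not called over all clones (limma adjusted p = 0.394, with an unadjusted p of 0.016). With mouse as a block, the adjusted p was 0.573. A common sign in each organ, opposite between heart and brain, was found for 4.46% of the clones with 4 mice in both organs. In the heart the dye orientations disagreed for *Gstt1*, with a mean of 0.41 for the mutant in Cy5 and -0.95 for the mutant in Cy3. In brain the mean was 0.65 for the mutant in Cy5 and 0.05 for the mutant in Cy3.

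The other theta members followed no common course. *Gstt2* had heart values of -0.01 in W, -0.04 in X, -0.09 in Y and -1.84 in Z, so that its mean of -0.50 ± 0.89 (SD, n = 4) was set by mouse Z, whose arrays gave -0.61 and -3.06. In brain *Gstt2* was below 0 in all 4 mice within a narrow range, -0.39 to -0.21 (mean -0.32 ± 0.08, SD, n = 4; limma adjusted p = 0.519). *Gstt4* was above 0 in the brain of 3 mice, with a mean of 0.49 ± 0.23 (SD, n = 3), and had -0.27 ± 0.40 (SD, n = 3) in the heart, a difference of -0.76 (limma adjusted p = 0.436). Its heart mice did not overlap its brain mice. *Gstt3* had both arrays for 2 mice in the heart, with means of -1.52 in W and -0.45 in Z, and a brain mean of 0.57 ± 0.64 (SD, n = 3). The 2 heart arrays of W gave 0.41 and -3.45.

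*Gstp1*, the single pi class gene on the array, whose product also binds and restrains the stress kinase JNK, was the highest relative in the heart. Its heart ratio was 0.09 in W, 0.57 in X, 0.49 in Y and 0.44 in Z, a mean of 0.40 ± 0.21 (SD, n = 4; limma adjusted p = 0.802). All 4 mice were above 0, on the side opposite to *Gstm2*. In brain 3 of 4 mice were below 0, with a mean of -0.21 ± 0.25 (SD, n = 4), and the heart mice lay above the brain mice without overlap. The heart minus brain difference of 0.60 was not called (limma adjusted p = 0.408), and mice were higher in the heart without overlap for 6.37% of all clones. The heart value came from the arrays with the mutant in Cy3, with a mean of 0.80, while those with the mutant in Cy5 had a mean of -0.01.

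The omega enzymes, which reduce dehydroascorbate and thiols more than they conjugate, were spread around 0 in the heart. The 3 *Gsto1* clones had heart means of 0.27 ± 0.89 (SD, n = 3), 0.30 ± 0.57 (SD, n = 4) and -0.02 ± 0.14 (SD, n = 4). The clones of 1 gene thus differed in spread, and none had a common sign there. In muscle, *Gsto1* clone 19499 was below 0 in all 4 mice, from -0.86 to -0.15 (mean -0.42 ± 0.31, SD, n = 4; limma adjusted p = 0.954), whereas clone 13934 of the same gene had -0.04 ± 0.65 (SD, n = 3). The muscle value of clone 19499 came from the arrays with the mutant in Cy3, with a mean of -1.065. Those with the mutant in Cy5 had a mean of 0.225. *Gsto2* had -0.28 ± 0.38 (SD, n = 4) in heart and -0.65 ± 0.52 (SD, n = 4) in muscle, with 3 of 4 mice below 0 in each.

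*Gstz1* and *Gstk1* lay on the upper side in the heart. *Gstz1*, an isomerase in the breakdown of tyrosine, had a heart mean of 0.29 ± 0.34 (SD, n = 4) on clone 691. On clone 4693 a single mouse had both arrays, with a mean of 0.71. In muscle both *Gstz1* clones had means below 0, -0.36 ± 0.85 (SD, n = 4) and -0.84 ± 0.93 (SD, n = 3). *Gstk1*, a mitochondrial and peroxisomal enzyme of another fold, had a heart mean of 0.23 ± 0.26 (SD, n = 4). Mice of *Gstk1* and of *Gstz1* clone 691 lay on both sides of 0 in heart and in muscle.

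Counted over the family, each organ had 14 clones with 4 mice, not the same clones in every organ. In the heart, 4 of the 14 (*Gstm1*, *Gstm2*, *Gstt1* and *Gstt2*) were below 0 in every mouse, against 7.55% of all clones, and 1 (*Gstp1*) was above 0 in every mouse, against 9.59%. *Gstm2* is among them by choice, and the *Gstt2* mice W, X and Y were within 0.1 of 0. In muscle, 3 of 14 (*Gstm1*, *Gstm2* and *Gsto1* clone 19499) were below 0 in every mouse, against 4.92% of all clones, and 0 were above 0 in every mouse, against 6.93%. In brain, 1 of 14 (*Gstt2*) was below 0 and 1 (*Gstt1*) above 0 in every mouse, against 15.7% and 10.1% of all clones. Among the clones tested, 11 of 17 were below 0 in brain with a median of -0.09, 10 of 17 in heart with -0.02 and 13 of 19 in muscle with -0.15. The brain median was -0.22 without mouse W, and the muscle median was -0.04 without mouse W and -0.25 without mouse Y. Over all clones the medians were -0.02, 0.01 and 0.01, and 52.2%, 48.5% and 48% of clones were below 0. No transferase was called in brain or muscle, where 0% of all clones were called and where 9.34% and 3.43% had an unadjusted p under 0.05, which 0 of the transferases had.

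Between organs, none of the relatives was called. The comparison of heart and brain could be made for 14 relatives, of which 3 (*Gstp1*, *Gstt1* and *Gstt4*) had an unadjusted p under 0.05, beside 11.3% of all clones. Those 3 also had mice that did not overlap between the organs, 2 of them lower in the heart (4.74% of all clones) and 1 higher (6.37%). For heart and muscle 15 relatives were compared and for brain and muscle 14, with 0 at an unadjusted p under 0.05, beside 5.06% and 6.53% of all clones, and 0 without overlap. Over all clones, the heart mice lay above the muscle mice without overlap in 3.05%, and the brain mice lay below the muscle mice in 4.43% and above them in 3.33%. The comparisons share samples of the same mice and are not independent of each other.

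The pattern of *Gstm2* over the 3 organs was set against that of the other 5999 clones with a value for all 4 mice in each organ, by the root mean square distance over the 12 mouse means. The nearest were clone 13053 (distance 0.93), clone 659 (0.94), *Fndc4* (0.96), *Zbtb41* (1.0) and *Tnnt3* (1.0), beside a median distance of 1.49 over the clones. *Fndc4* encodes a secreted fibronectin-domain protein, and *Tnnt3* the fast skeletal muscle troponin T. Their heart means, -1.04, -0.91, -1.0, -1.22 and -0.80 in that order, were all less far from 0 than that of *Gstm2*. Among the transferases, *Gstm1* was nearest, at rank 96 with a distance of 1.22. *Gstt2* followed at rank 258 and *Gstt1* at rank 261, while *Gstp1*, at rank 4918, was the farthest of the 9 transferases that could be ranked.

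Genes that supply glutathione, and enzymes that work beside the transferases, showed no called change in the heart, where 0% of all clones were called. Of 21 genes of glutathione synthesis, breakdown and recycling, 14 were measured, 9 below and 5 above 0 with a median of -0.06. *Oplah*, which recycles oxoproline to glutamate, had the largest values of the list, -0.37, -0.23, -1.48 and -3.50 in mice W to Z on clone 12941, a mean of -1.40 ± 1.51 (SD, n = 4; limma adjusted p = 0.802), and -0.65 ± 0.81 (SD, n = 3) on clone 13497. All mice with a value were below 0 on both *Oplah* clones, with a spread as large as the means. *Gclc*, the catalytic subunit of the enzyme that limits glutathione synthesis, had -0.29 ± 0.30 (SD, n = 4), and *Glo1*, which uses glutathione to remove methylglyoxal, had 0.42 ± 0.52 (SD, n = 4).

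Of 28 peroxidase and redoxin genes, 21 were measured in the heart, 8 below and 13 above 0 with a median of 0.03. *Prdx1*, a peroxiredoxin that removes hydrogen peroxide, was above 0 in all 4 mice, at 0.51, 0.81, 0.28 and 0.51 (mean 0.53 ± 0.22, SD, n = 4; limma adjusted p = 0.802). *Gpx8*, a peroxidase of the endoplasmic reticulum, was below 0 in all 4, at -0.88, -0.55, -1.41 and -0.06 (mean -0.72 ± 0.57, SD, n = 4; limma adjusted p = 0.802). Neither passed the test over all clones. *Txnrd2*, the mitochondrial thioredoxin reductase, had 0.68 ± 0.51 (SD, n = 3) on one clone and 0.02 ± 0.32 (SD, n = 4) on the other.

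Of 21 genes for membrane-bound transferases and for other proteins with the transferase fold, 10 were measured in the heart, 2 below and 8 above 0 with a median of 0.13. Among them, *Clic1*, an intracellular chloride channel with this fold, had 0.50 ± 0.43 (SD, n = 3) and the elongation factor subunit *Eef1g* 0.30 ± 0.31 (SD, n = 4). The valyl-tRNA synthetase *Vars* had 0.64 ± 0.69 (SD, n = 3) on one clone and -0.11 ± 0.42 (SD, n = 4) on the other, so its clones disagreed in sign.

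Nrf2 is the factor that raises transferase genes under oxidative stress, and 19 of 30 genes for it, its partners and its usual targets were measured in the heart. Of these, 6 were below and 13 above 0, with a median of 0.12. *Abcc1*, a pump that exports glutathione conjugates, had -0.40 ± 0.28 (SD, n = 4) on one clone and 0.94 ± 1.24 (SD, n = 3) on the other. The *Nfe2l2* clone, for Nrf2 itself, had -2.265 ± 4.12 (SD, n = 3), with 1.37 in W, -6.74 in X and -1.42 in Z. *Mafg* had -2.64 ± 4.18 (SD, n = 4) on clone 5257, where mouse Y had -8.69. Its clone 17127 had -0.10 ± 0.85 (SD, n = 4). *Nfe2l1*, a relative of Nrf2, had 0.29 ± 0.20, 0.15 ± 0.16 and -0.07 ± 0.32 (SD, n = 4 each) on its 3 clones, which differed in sign. The autophagy receptor *Sqstm1* had 3.89 ± 4.74 (SD, n = 3) on clone 340, where mouse X had 9.26, and 0.01 ± 0.26 and -0.05 ± 0.11 (SD, n = 4 each) on its 2 other clones. In brain 13 of 16 measured genes of this list were below 0 (52.2% of all clones were), with a median of -0.19, and in muscle 9 of 17 (48% of all clones), with a median of -0.01, with 0 clones called in either organ.

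Of 46 genes for other drug-metabolising enzymes, 37 were measured in the heart, 20 below and 17 above 0 with a median of -0.02. *Ugt1a6a*, which adds glucuronic acid to phenols, was below 0 in all 4 mice within a narrow range, at -0.53, -0.46, -0.57 and -0.51 (mean -0.52 ± 0.04, SD, n = 4; limma adjusted p = 0.802). *Akr1e1*, an aldo-keto reductase, had 0.50 ± 0.39 (SD, n = 4) on one clone and -0.16 ± 0.77 (SD, n = 4) on the other. No clone of any of these lists was called in the heart, where 0% of all clones were called. An unadjusted p under 0.05 in limma was found for *Prdx1* (0.0232), *Gpx8* (0.0362) and *Ugt1a6a* (0.0145), beside 5.22% of all clones.

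**Figure D4:**
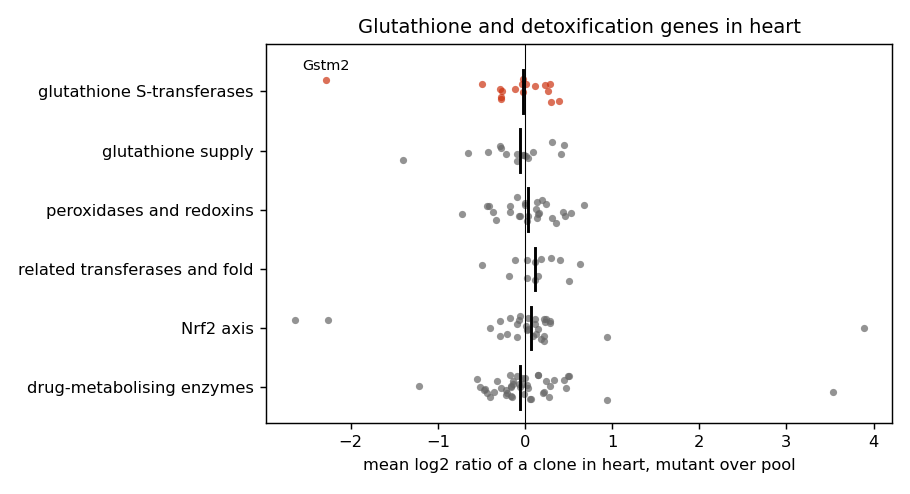
Each point is the mean log2 ratio of a clone in the heart (horizontal axis), with 1 row for the transferases and 1 for each list of related genes, and a black bar at the median of the clones shown. *Gstm2* lies at -2.28, whereas the medians of all rows lie near 0. In the Nrf2 row, *Mafg* clone 5257 at -2.64 and the *Nfe2l2* clone at -2.265 lie as low, with a wide spread between mice.

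Markers of other cell types were compared in the same hearts. Genes of adipocytes (4 of 11 measured below 0, median 0.08), endothelium (8 of 11, -0.17), smooth muscle (3 of 6, -0.09), fibroblasts and matrix (3 of 8, 0.10), immune cells (3 of 9, 0.07), atrial cardiomyocytes (3 of 5, -0.00), lung and airway (0 of 3, 0.25) and liver (2 of 3, -0.06) had small medians, with 0 clones called. Blood genes were below 0 in 4 of 4, with a median of -0.32 over genes, medians over their clones of -0.77 to -0.19 by mouse, and 0 clones called. Of the 10 blood clones tested, 7 were lower with an unadjusted p under 0.05 in limma, beside 5.22% of all clones in either direction. The same threshold was met by 3 of 15 adipocyte clones and 1 of 13 immune clones, all higher. It was also met by 1 of 11 smooth muscle clones, which was lower, and by no clone of the other cell types. Of all clones tested in the heart, 0% were called. None of the marker medians approached the *Gstm2* ratio, and the part of these cells in it was not tested.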

How the data were processed

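Brain, heart and skeletal muscle RNA of 4 *Eya3*-/- mice was hybridised against a wild-type pool on 24 glass cDNA arrays. Scanning was done by the authors with GenePix and normalization with MIDAS, and the deposited values are log2 ratios with empty cells for missing spots. The normalization method, filters and signal over background are not given in the sources used here. The authors called genes with SAM.

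The values were taken as deposited. By the signs of the values beyond 10, swapped arrays had likely already been turned to one direction, which the sources do not state outright. Clone symbols came from the platform annotation. Dye-swapped arrays were averaged to 1 value per mouse, and testing needed at least 3 mice with both arrays. The mean was compared with 0, organ by organ, and between organs by limma 3.58.1 (lmFit, eBayes, Benjamini-Hochberg over all clones) under R 4.3.3. Calls needed an adjusted p under 0.10. Single values were tested by exact sign flips of mouse means. The number of arrays limits the precision. SAM was rewritten in R. Programs were tested on simulated data. The members, lists and tests were chosen with earlier results of these data known. Named were all transferase clones, the 5 clones of the most similar pattern, the 5 identifiers on either side of *Gstm2*, and up to 3 genes of lowest heart p in each list, with their further clones where these were measured. *Nfe2l2* and *Mafg* were named besides, for clones with a heart mean as low as that of *Gstm2*.

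Samples of different organs are paired, because they come from the same mice. Between organs, the correlation of a mouse's deviations, taken across clones, was -0.008 to 0.058. Alternatives were centring and scaling of arrays, requirements on missing values, values beyond 10 as missing, single arrays as samples, a random or fixed block for mouse, single dye orientations, robust eBayes, thresholds, SAM, the mean of a gene's clones, and each mouse left out. Promoter windows were those of RefSeq. Python 3.11.15 with matplotlib 3.10.9 drew the figures.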

Additional observations from a re-analysis of the deposited data

Results flagged for a closer look

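In the heart, the *Gstt2* clone had 1 mouse far from the others: mouse Z was at -1.84, and the gap to the next mouse made up 0.956 of the range of the 4 mice. In brain, the *Gsta2* clone had mouse Z at 0.14 above the other 3 mice, with a gap of 0.843 of the range. Of 42 groups of 4 mice looked at among the transferase clones, 2 were picked out in this way, and chance picks out about 1 in 20.

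The mouse means of the *Gstt1* clone lay on opposite sides in 2 organs, below 0 in the heart and above 0 in the brain in all 4 mice. Such a pattern was found for 4.46% of the clones with 4 mice in both organs. With the mutant in Cy5, the mean was above 0 in both organs, at 0.41 in heart and 0.65 in brain. With the mutant in Cy3, it was -0.95 in heart and 0.05 in brain. The heart minus brain difference of -0.616 did not pass limma's test of the difference over all clones (adjusted p = 0.394).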

How the results depend on the processing

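Over all alternatives, *Gstm2* in the heart stayed between -2.37 and -2.21, and *Gstm2* in muscle between -0.44 and -0.29. *Gstm2* in brain, at -0.01 in the values as reported, turned to 0.17 with only the arrays with the mutant in Cy3, to 0.28 without mouse X and to 0.07 without mouse Z (range over left-out mice -0.36 to 0.28). The median of the transferase clones in heart moved to -0.42 with only the arrays with the mutant in Cy3, and lay between -0.11 and -0.01 over left-out mice (-0.22 to -0.07 in brain and -0.25 to -0.04 in muscle). In place of 0 clones called in the heart, 1 clone was called with only the 11299 clones that had all 8 arrays, with the 8 arrays taken as samples, with mouse as a random block, and by SAM on the mouse means, and that clone was *Gstm2*. Since *Gstm2* was chosen on these heart values, the calls are not independent support for it. In place of 0 clones called in brain, 1 was called with the 8 arrays taken as samples and 2 with mouse as a random block, none of them a transferase. For heart minus muscle, 1 clone was called at an adjusted p under 0.20, again *Gstm2*, through the heart values that chose it. The cause of these shifts was not tested. The other 151 values under alternatives stayed on their side of the threshold or, for the medians, moved by less than the spread between mice, the counts without each mouse in turn (0 to 0) among them. One of these medians changed sign, that of the heart, at 0.01 with the arrays centred and scaled. With mouse as a replicate block, 0 clones were called in each comparison between organs, as without it.

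The 4 mice, the single pool, the missing values and the low agreement of dye pairs limit the precision. In every organ, the heart included, changes smaller than the spread between mice were not detectable, and larger ones also went uncalled. *Gstt2* in brain, at -0.32 ± 0.08 (SD, n = 4), had a limma adjusted p of 0.519.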
